A study of Mus musculus with 12 samples.

Results

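Mouse bone marrow-derived dendritic cells (BMDCs) carrying Vav1/2/3-/- were compared with wild-type (WT) cells after both had been exposed to curdlan. The members are the 3 WT and 3 knockout (KO) libraries with curdlan, 6 of the 12 libraries of the study, chosen by genotype and treatment in the library names. All genes with enough counts were compared, which left 18981 of the 37991 genes in the count table. Each library is named by its group and the number in its library name: WT 1, 2 and 4 and KO 2, 4 and 5 with curdlan, and WT 1, 2 and 4 and KO 1, 2 and 5 without. The mice were C57BL/6. Stimulation lasted 3 hours with curdlan written as 200 mg/ml in the labels, and nothing else in the sources bears on that unit. The labels write the genotype of the KO mice as Vav1/2/3-/- and name no Cre driver. The labels do not say whether the 3 libraries of a group came from separate mice or cultures, so p-values measure the spread between these libraries, which may be technical. Each group also filled its own sequencing lane (WT on lane 7 and KO on lane 8 with curdlan), so genotype and lane cannot be told apart.

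Vav1, Vav2 and Vav3 are guanine nucleotide exchange factors, proteins that load small GTPases such as Rac with GTP, and they are switched on by tyrosine phosphorylation downstream of immune receptors. Curdlan is a particulate fungal-type beta-glucan recognised by Dectin-1 (encoded by Clec7a), which signals through the kinase Syk to the adapter CARD9. CARD9 joins BCL10 and MALT1 in a complex that activates NF-kB, and the induced genes include cytokines such as Tnf, Il6 and Il12b. The title of the study asks about Vav proteins in Card9 signalling in antifungal immunity, and the contrast described here is the genotype contrast in stimulated cells.

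Vav transcripts were not lower in the KO libraries. CPM (counts per 1000000 counts of scaled library size) of Vav1 (chr17:57279100-57328031, GRCm38) were 179, 178 and 177 in WT 1, 2 and 4 and 252, 330 and 246 in KO 2, 4 and 5. The KO libraries lay above the WT libraries without overlap, with a log2 difference of 0.63 ± 0.1 (standard error; edgeR, Benjamini-Hochberg adjusted p = 0.000289). Vav2 (chr2:27262104-27427033, minus strand) was at 66, 72.7 and 69.2 CPM in WT and at 265, 325 and 270 CPM in KO, 4.14-fold higher (log2 difference 2.05 ± 0.085, adjusted p = 9.26e-09, same edgeR test). For Vav3 (chr3:109340653-109685698) the WT values of 28.3, 32.6 and 36.9 CPM overlapped the KO values of 30.2, 22.7 and 32.5 CPM, and the log2 difference of -0.19 ± 0.15 did not pass (edgeR adjusted p = 0.315). With libraries scaled by size alone, Vav3 passed as lower (-0.44, adjusted p = 0.0249), the only one of 21 alternatives where it did (range 0.0249 to 0.762). The counts cover whole genes, so a deletion of part of a gene would not show in them. Vav1 and Vav2 separated the groups, but with higher values in KO, so this check does not show the knockout as labelled. For that reason KO stands below for "the libraries labelled KO", and every direction rests on that label.

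Total counts ran from 46496689 to 51072887 in the WT libraries and from 41719713 to 52378245 in the KO libraries. The mean composition factor (TMM) was 1.03 in WT and 0.867 in KO. Replicates differed more among KO libraries than among WT libraries: the chi-square per degree of freedom between pairs was 68.5 to 83.9 in KO and 10.8 to 26.0 in WT. KO 5 stood apart most often, lying more than 2-fold above both other KO libraries in 63 and below both in 39 of 11264 genes with a mean of at least 2 log2 CPM. WT 4 lay more than 2-fold above both other WT libraries in 23 genes. For many genes and lists where KO 5, WT 4 or another library decides a call or a size, the value without it is given too.

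Of the 18981 genes tested, 9762 (51.4%) passed an adjusted p under 0.05, 4682 of them higher in KO (24.7%) and 5080 lower (26.8%). At least 2-fold, 1178 genes were higher (6.21%) and 1375 lower (7.24%). Of the 9762 calls, 4443 were under 1.5-fold, and the median absolute log2 difference of called genes was 0.63. The values of the 3 KO and 3 WT libraries did not overlap in 10807 genes (56.9%). The split between higher and lower depended on the scaling: 48.0% of calls were higher with TMM, and 23.7% with library size alone, where the median log2 difference of all genes moved from 0.01 to -0.24. In the authors' deposited table of the same contrast, 8145 genes had an adjusted p under 0.05, 3778 higher and 4367 lower. The calls here and the calls of the authors' deposited table shared 7951 genes, all with the same direction.

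Among called genes without overlap between groups, of at least 2 mean log2 CPM and with no clone name, Apoe was the largest increase in KO and Igkc the largest decrease. Cd209 lectins, Gas6 and complement C1q were among the 15 largest increases, and Uchl1, Ighm and the desaturase Scd1 among the largest decreases; genes with hardly a count in KO, such as Jchain and St6galnac2, are described further on. Apoe (chr7:19696109-19699188), the apolipoprotein that carries cholesterol out of macrophages, was at 15.3, 12.3 and 13.6 CPM in WT and at 1420, 1420 and 1530 CPM in KO. That is 106-fold higher in KO, with little spread in either group (log2 difference 6.73 ± 0.19, edgeR adjusted p = 3.1e-10). Gas6, the ligand of the phagocytic receptors Axl and Mertk, was at 3.71, 3.84 and 3.35 CPM in WT and at 143, 146 and 88.3 CPM in KO, 34.6-fold higher. KO 5 was the lowest of the KO libraries for Gas6, still far above WT. Cd209a and Cd209d encode lectins related to human DC-SIGN, a mannose-binding uptake receptor. Cd209a was at 3.32, 2.41 and 2.36 CPM in WT and at 126, 101 and 33.3 CPM in KO, and Cd209d at 0.508, 0.435 and 0.364 against 63.1, 46.8 and 16 CPM. In both lectin genes KO 5 carried less than the other KO libraries, and the log2 differences were 5.01 ± 0.6 and 6.59 ± 0.71.

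C1qa, C1qb and C1qc encode the 3 chains of C1q, the recognition unit of the classical complement pathway. C1qa was at 84.1, 43.4 and 51.9 CPM in WT and at 1180, 1290 and 1080 CPM in KO, 19.8-fold higher (log2 difference 4.3 ± 0.28). The other chains differed in the same direction, C1qb by 3.24 ± 0.18 and C1qc by 3.53 ± 0.22 on the log2 scale, all without overlap between groups. The remaining large increases were Ccl12 (4.96), a chemokine that attracts monocytes, Ms4a7 (4.28), Ms4a6c (4.28), Ms4a6b (3.97), the serine protease gene Htra3 (3.97), the ribonuclease genes Rnase4 (3.94) and Rnase2a (3.56), and Slc9a9 (3.77), an endosomal sodium-proton exchanger, all as log2 differences. Retnla, which encodes the secreted protein RELM-alpha, was uneven: 2.79, 1.74 and 1.97 CPM in WT and 5.68, 31.5 and 235 CPM in KO. Its log2 difference of 5.38 ± 1.4 (edgeR adjusted p = 0.00566) fell to 3.09 without KO 5, and limma-voom did not call it (3.99, adjusted p = 0.0787, the highest over the alternatives).

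Igkc, the kappa light chain constant gene, was at 290, 271 and 194 CPM in WT and at 0.416, 0.581 and 0.134 CPM in KO, 662-fold lower (log2 difference -9.37 ± 0.46, edgeR adjusted p = 3.81e-08). Ighm, the mu heavy chain constant gene, was at 806, 701 and 570 CPM in WT and at 13.9, 16.7 and 12.5 CPM in KO, 48.1-fold lower. No KO library came near the WT libraries in either gene. Uchl1, which encodes a ubiquitin hydrolase, was at 47.6, 51.9 and 40.2 CPM in WT and at 0.46, 0.608 and 1.21 CPM in KO, 62.3-fold lower. Scd1, the stearoyl-CoA desaturase that makes monounsaturated fatty acids, was at 157, 160 and 163 CPM in WT and at 11.3, 14.3 and 6.55 CPM in KO, 14.9-fold lower. Other large decreases, as log2 differences, were the ribonuclease gene Ear2 (-3.81), the chaperone gene Clu (-3.7), Kcp (-3.54), the vesicle fusion gene Syt7 (-3.52), Serpinb9b (-3.36), the elongation factor gene Eef1a2 (-3.2), Plekhg1 (-2.85) and Spib (-2.67), an ETS-family transcription factor of B cells and plasmacytoid dendritic cells. Adgre4, an adhesion receptor gene related to F4/80, was at 31.4, 37.4 and 31.4 CPM in WT and at 0.833, 1.19 and 6.5 CPM in KO; its log2 difference of -3.58 ± 0.73 became -5.06 without KO 5. For Ctse, the protease cathepsin E, WT 1 stood at 5.31 CPM beside 49.5 and 52.5 CPM in WT 2 and 4, against 5.11, 3.37 and 4.3 CPM in KO. WT 1 thus lay just above the KO libraries, and the call (-3.06 ± 0.86, edgeR adjusted p = 0.00987) was lost with limma-voom (-2.49, adjusted p = 0.1; 0.00165 to 0.1 over all alternatives).

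**Figure D1:**
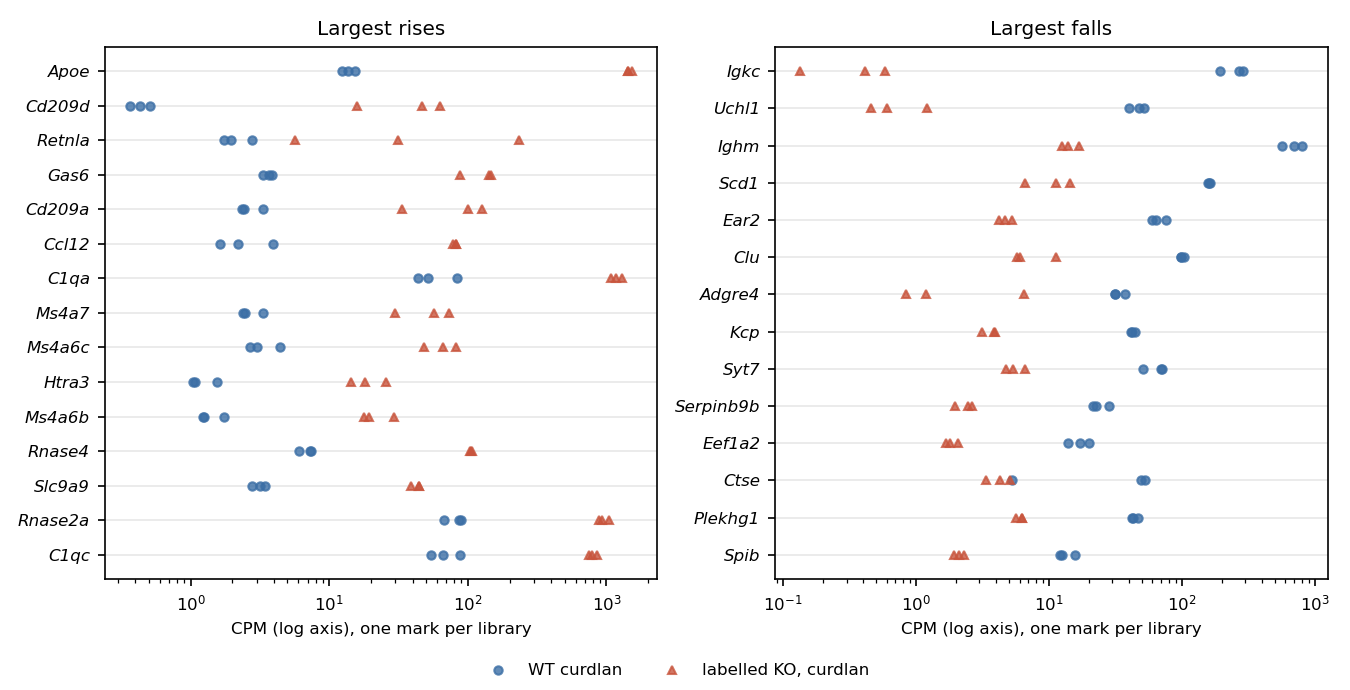
CPM (log axis) in each of the 6 curdlan libraries for genes with the largest increases (left) and decreases (right), with circles for WT and triangles for KO libraries. Apoe lay between 12.3 and 15.3 CPM in WT and between 1420 and 1530 CPM in KO, Retnla in KO ran from 5.68 to 235 CPM, and the WT circle of Ctse at 5.31 CPM sits beside the KO triangles.

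Interferon-stimulated genes had the largest share of members higher in KO among the 35 gene lists. Type I interferon signals through JAK kinases to a complex that contains STAT2 and IRF9 and binds the interferon-stimulated response element (ISRE), and the targets include antiviral effectors of the Ifit family. Of 51 members tested, 50 were higher in KO and 0 lower, 44 by at least 2-fold, with a median log2 difference of 1.91 beside 0.01 over all genes. The member that did not pass was Irf8 (0.21), a transcription factor that dendritic cells carry without stimulation. The summed CPM of the list was 3260 to 5670 in WT and 15600 to 17700 in KO, and 49 to 51 members were higher when any 1 library was left out. Promoter sequences of 4 members are shown because this element is the known target of the interferon pathway. The 60-base stretches are from RefSeq (GRCm38.p6), 5′ to 3′ on the gene's strand, taken around the match nearest the gene's start, and belong to members with large increases that hold a match. Capitals mark matches to an ISRE-like pattern, GAAANNGAA or TTCNNTTTC on the other strand, in the 250 bases before the start. They lie at chr19:34583401-34583460 (Ifit3, plus), chr19:34640779-34640838 (Ifit1, plus), chr12:26456538-26456597 (Rsad2, minus) and chr11:58199496-58199555 (Igtp, plus).
Ifit3: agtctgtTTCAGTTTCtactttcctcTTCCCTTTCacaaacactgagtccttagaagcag
Ifit1: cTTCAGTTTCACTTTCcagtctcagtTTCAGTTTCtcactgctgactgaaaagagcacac
Rsad2: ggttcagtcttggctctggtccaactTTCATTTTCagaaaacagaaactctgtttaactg
Igtp: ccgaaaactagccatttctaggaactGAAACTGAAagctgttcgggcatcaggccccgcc
Promoters were available for 39 of the 51 genes of the list. The pattern was in 22 of these 48 promoters (45.8%), belonging to 21 genes, and in 6.43% of 14076 promoters of all tested genes. In promoters of genes at least 2-fold higher in KO it was present in 12.1%, and in those of genes at least 2-fold lower in 5.65%. An AP-1-like pattern, TGANTCA, was in 16.7% of the list's promoters and in 5.0% of all. A match to these letters is not a measured binding site.

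Ifit1, whose protein binds foreign RNA caps, was at 67.5, 52.6 and 155 CPM in WT and at 998, 859 and 778 CPM in KO, 9.59-fold higher (log2 difference 3.26 ± 0.35, edgeR adjusted p = 1.31e-05). Ifit3 was at 11.4, 7.53 and 25.1 CPM in WT and at 176, 144 and 158 CPM in KO (3.44 ± 0.36), and Ifit2 at 70.4, 55.8 and 173 against 1110, 671 and 752 CPM (3.08 ± 0.39). In all 3 genes WT 4 was the highest WT library, and still below every KO library. Without WT 4 the log2 differences of Ifit1, Ifit2, Ifit3 and Ifit3b rose to 3.87, 3.74, 4.07 and 3.91. Feedback and signalling genes of this pathway were higher as well. Socs1, the inhibitor of JAK kinases, was at 18.8, 21.5 and 31.1 CPM in WT and at 95.9, 107 and 111 CPM in KO (2.13 ± 0.19). Of 23 SOCS and JAK-STAT genes, 12 were higher and 2 lower (median 0.29), among them Stat2 (1.06), Jak2 (0.96) and Socs3 (1.03) higher, and Stat4 (-1.08) and Socs5 (-0.52) lower. With library size alone, 9 were higher and 8 lower.

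Of 13 CXC chemokines, 11 were higher in KO, all by at least 2-fold, and 0 lower (median 1.96). Cxcl10, an interferon-induced chemokine for activated T cells, was at 126, 94.8 and 223 CPM in WT and at 929, 794 and 796 CPM in KO (2.5 ± 0.26). The neutrophil chemokine gene Cxcl2 was at 1630, 1370 and 1810 CPM in WT and at 2970, 2900 and 4940 CPM in KO, 2.25-fold higher (1.17 ± 0.25, edgeR adjusted p = 0.00203). Its relative Cxcl5 was at 7.85, 7.2 and 7.07 against 23.2, 41.1 and 103 CPM, and the log2 difference of 2.92 ± 0.57 became 2.12 without KO 5. Cxcl12 was low in both groups (0.166 to 0.234 CPM in WT, 1.22 to 1.96 CPM in KO; 2.96 ± 0.33). Cxcl1, another neutrophil chemokine, did not pass, with 59.6, 47.9 and 58 CPM in WT and 52.9, 20.8 and 104 CPM in KO. Its log2 difference of 0.11 became -0.58 without KO 5, which did not pass either. Cxcl14 did not pass either (0.21), and Cxcl13, at 4 counts in WT and 21 in KO, lost its call under 10 alternatives. A kB-like pattern, GGGNNTTTC or GAAANNCCC on the other strand, stands in capitals in the 60-base promoter stretches of Cxcl2 (chr5:90903795-90903854, plus) and Cxcl3 (chr5:90786002-90786061, plus), read from RefSeq in the same way.
Cxcl2: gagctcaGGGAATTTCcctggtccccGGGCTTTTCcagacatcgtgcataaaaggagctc
Cxcl3: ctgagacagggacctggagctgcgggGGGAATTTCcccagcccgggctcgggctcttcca
The kB-like letters were found in 4 of 10 CXC chemokine promoters (40.0%) and 9 of 30 promoters of NF-kB pathway genes (30.0%), and in 3.69% of all promoters. The same CXC chemokine promoters held the ISRE-like pattern in 3 of 10 (30.0%) and the AP-1-like pattern in 2 of 10, so the kB-like letters were not alone in exceeding their share of all promoters. In the NF-kB list the ISRE-like and AP-1-like shares were 10.0% and 13.3%. The kB-like letters stood in 4.65% of promoters of genes at least 2-fold higher and 4.13% of those at least 2-fold lower. The ISRE-like and kB-like patterns overlapped in 7 of all promoters and in 0 of those of the interferon, CXC chemokine and NF-kB lists.

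Of 15 CC and CX3C chemokines tested, 9 were higher and 2 lower (median 1.03; 8 and 3 with library size alone). Ccl7, which attracts monocytes through CCR2, was at 94.2, 80.7 and 107 CPM in WT and at 675, 767 and 925 CPM in KO, 8.39-fold higher (3.07 ± 0.14, edgeR adjusted p = 2.97e-08). Ccl3, the macrophage inflammatory protein 1-alpha gene, was at 1280, 1090 and 1530 CPM in WT and at 3120, 2590 and 3700 CPM in KO (1.27 ± 0.19). Ccl2 (2.0), Ccl4 (1.44) and Ccl5 (1.03) were higher too. Ccl8 had 2 counts in all 3 WT libraries together and 576 in the KO libraries, a depth-scaled ratio of 367 with a 95% counting interval of 101 to 3040. Both WT counts were in WT 4, and the fitted log2 difference of 8.24 was 10.9 without it. Ccl24, an eosinophil chemokine gene, was at 0.917, 0.643 and 1.17 CPM in WT and at 2.52, 4.34 and 44 CPM in KO, and KO 5 set its size: the log2 difference of 4.21 was 1.89 without it. The 2 lower members were Ccl17 (-0.67) and Ccl22 (-0.78), ligands of CCR4 made by dendritic cells.

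The genes known to respond to Dectin-1 or to carry its signal were higher in KO or did not pass. Of the 23 genes of this core list, 13 were higher and 0 lower, with a median log2 difference of 0.44, and leaving out any 1 library gave 11 to 15 higher. With library size alone 8 were higher, and with the replicate number as a block 14 were higher and 2 lower. Il23a, the p19 subunit of interleukin-23, was at 22.9, 15.7 and 22.3 CPM in WT and at 48.4, 45.5 and 69.3 CPM in KO, 2.68-fold higher without overlap (1.42 ± 0.21, edgeR adjusted p = 0.000165). Ptgs2, the inducible cyclooxygenase, was at 714, 710 and 815 CPM in WT and at 1440, 862 and 1250 CPM in KO (0.66 ± 0.17, edgeR adjusted p = 0.00612). Il6 was at 54.1, 48.5 and 80.4 CPM in WT and at 81.7, 94.8 and 184 CPM in KO, so KO 2 lay only just above WT 4. Its call (0.98 ± 0.3, edgeR adjusted p = 0.0171) was lost without KO 5 (0.53, adjusted p = 0.0988), without WT 1 (0.9, 0.058), without WT 2 (0.84, 0.071) and with library size alone (0.73, 0.0537), and the adjusted p ran from 0.00235 to 0.0988 over all alternatives.

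Tnf, a cytokine commonly used to read out Dectin-1 signalling, was at 2870, 2580 and 3530 CPM in WT and at 4380, 3000 and 4600 CPM in KO. KO 4 lay within the WT range, and the log2 difference of 0.42 ± 0.17 did not pass (edgeR adjusted p = 0.0561; 0.00803 without KO 4, 0.0284 without WT 4, 0.0322 with DESeq2, 0.0495 with a filter of 1 CPM in 3 libraries, and up to 0.414 under the others). Il12b, the p40 subunit shared by interleukins 12 and 23, was at 237, 255 and 418 CPM in WT and at 601, 342 and 419 CPM in KO. Its groups overlapped, and its call at the threshold (0.58 ± 0.23, edgeR adjusted p = 0.0498) was lost under 11 alternatives, among them without KO 2 (0.32, adjusted p = 0.242; 0.00533 to 0.242 over all alternatives). Il1b (0.37), Il2 (0.12), Csf2 (-0.23), Il10 (-0.19) and Egr3 (0.41) did not pass, each with overlapping groups. With the replicate number as a block, Csf2 (-0.62, edgeR adjusted p = 0.0386) and Il10 (-0.68, edgeR adjusted p = 0.00388) passed as lower. Il10 was at 5.76, 4.6 and 5.94 CPM in WT and at 3.48, 3.1 and 7.76 CPM in KO, and passed as lower without KO 5 (-0.72, edgeR adjusted p = 0.0193; 0.00388 to 0.985 over all alternatives). Of the immediate-early genes of the core list, Egr1 (0.7), Egr2 (0.36) and Nr4a1 (0.65) were higher. The NF-kB inhibitors Nfkbia (0.58) and Tnfaip3 (0.54) were higher without overlap.

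**Figure D2:**
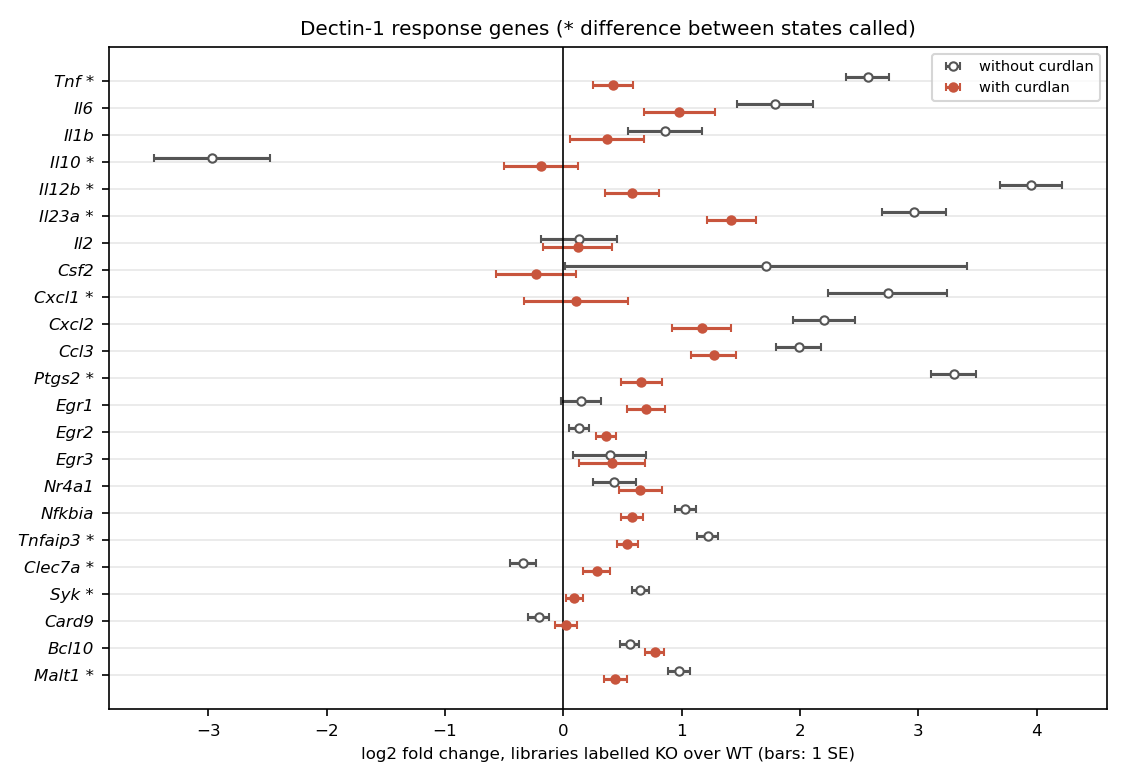
Log2 difference between KO and WT (x axis) for the 23 genes of the Dectin-1 response core, with open points without curdlan, filled points with curdlan, bars of 1 standard error and an asterisk where the difference between states was called. The filled points of Il23a (1.42), Ccl3 (1.27) and Cxcl2 (1.17) lie farthest to the right, Card9 (0.02) lies at 0, and the open points of Tnf (2.57), Il12b (3.95) and Ptgs2 (3.3) lie to the right of their filled points.

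The receptor and its signalling chain showed small differences with few exceptions. Clec7a was at 829, 782 and 675 CPM in WT and at 1040, 793 and 948 CPM in KO, an overlap and a log2 difference of 0.28 ± 0.11 that did not pass (edgeR adjusted p = 0.0558) and did pass under 8 alternatives (adjusted p = 0.0155 to 0.0499 there, and up to 0.812 under the others). Syk stood at 806, 830 and 793 against 881, 898 and 800 CPM (0.09, not passed). Card9 was level, at 44.1, 41.5 and 39.6 CPM in WT and 39, 46.9 and 41.4 CPM in KO (0.02 ± 0.091, edgeR adjusted p = 0.844). Its partners were higher: Bcl10 at 101, 93.7 and 104 against 157, 168 and 183 CPM (0.77 ± 0.083, edgeR adjusted p = 1.3e-05), and Malt1 by 0.44, a call lost with library size alone (0.19, 0.0971). In the wider list of Syk to CARD9 signalling and NADPH oxidase partners, 17 of 40 members were higher and 11 lower (median 0.11), and 12 and 17 with library size alone. The Src-family kinase genes Fyn (1.11), Src (1.09) and Lyn (0.97) and the kinase gene Map3k7 (0.98), also known as TAK1, were higher. Rasgrp3, which encodes an exchange factor for Ras and Rap, was at 7.24, 8.31 and 7.26 CPM in WT and at 0.679, 0.691 and 0.645 CPM in KO, 11.3-fold lower (-3.5 ± 0.14, edgeR adjusted p = 6.68e-09).

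Other exchange factors, GTPases and actin regulators, the known partners of Vav proteins, were mixed. Of 49 small GTPase, exchange factor and GAP genes, 18 were higher and 13 lower (median 0.14), against 8 and 20 with library size alone, so the balance has no stable direction. The largest were the atypical GTPases Rhou (1.26), Rnd3 (1.2) and Rhov (1.06), all higher, and Dock5 (-1.25), a Rac exchange factor of another family, lower. Of 44 WASP, Arp2/3 and actin genes, 18 were higher and 7 lower (7 and 19 with library size alone, 4 lower without WT 2). Marcks (1.39), Marcksl1 (1.93) and Enah (1.38) were higher, and Fscn1, the actin bundler of mature dendritic cells, was lower, with 168, 159 and 188 CPM in WT and 68.5, 71.1 and 48.2 CPM in KO (-1.46 ± 0.2). Among 31 integrin and adhesion genes, 9 were higher (29.0%) and 8 lower (25.8%), near the 24.7% and 26.8% of all genes, with Itgb7 (1.4) higher and Itga1 (-1.01) lower. Library size alone gave 5 and 13, and 5 were lower without WT 1.

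NF-kB pathway genes were mostly higher by small amounts: 18 of 25 members against 1 lower (Cyld, a deubiquitinase that restrains the pathway, -0.27), with a median of 0.44. Library size alone gave 11 and 3. The largest were the survival gene Bcl2l1 (1.01), the atypical inhibitor Nfkbiz (0.93), the adhesion molecule Icam1 (0.86) and Nfkbib (0.8). Icam1 was at 668, 663 and 712 CPM in WT and at 1640, 1220 and 858 CPM in KO, where KO 5 was the lowest. Immediate-early and NFAT-linked genes gave 22 higher and 4 lower of 32 (median 0.48; 13 and 5 with library size alone). Rcan1, a calcineurin-NFAT target, was at 88.8, 78.8 and 87 CPM in WT and at 167, 153 and 317 CPM in KO (1.33 ± 0.21), and the lower members were Fosl1 (-1.08), Ppp3cc (-0.63), Myc (-0.51) and Nfatc3 (-0.51). Egr4 was higher at under 1.5 CPM in every library (1.75, or 1.11 without KO 2). Among 24 MAPK phosphatase and Sprouty genes, 8 were higher and 5 lower, but 5 and 6 with library size alone and 11 and 3 without KO 4. Dusp6 (1.4), Dusp2 (1.21) and Rgs18 (1.27) were higher, and Dusp14 was lower (-2.19).

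Of 38 cytokine and growth factor genes, 16 were higher and 6 lower (median 0.45). When any 1 library was left out, 12 to 18 were higher and 4 to 9 lower, and library size alone gave 11 and 6. Il27, the p28 subunit of interleukin-27, was at 2.77, 2.18 and 5.65 CPM in WT and at 24.8, 19 and 20.3 CPM in KO (2.59 ± 0.27). Igf1, insulin-like growth factor 1, was at 52.3, 41.1 and 38.7 CPM in WT and at 216, 238 and 165 CPM in KO (2.23 ± 0.15). The lower members included Il33 (-2.2) and Tnfsf4, the OX40 ligand, which was at 65.5, 65.7 and 90 CPM in WT and at 16.7, 14.1 and 14.1 CPM in KO (-2.3 ± 0.13). In each of Il27, Igf1 and Tnfsf4 the groups did not overlap. Of 40 cytokine receptor genes, 19 were higher and 3 lower (13 and 8 with library size alone). Without KO 2 the lower count was 6, and without KO 5 it was 5. Il1r2, the decoy receptor for interleukin-1, was higher (1.67), and Il1r1, the signalling receptor, was lower (-1.14). Among 17 chemokine receptors, 7 were higher and 4 lower, but 5 and 6 with library size alone. C5ar1 was higher (1.62). Ccr7, which guides mature dendritic cells to lymph nodes, was at 279, 272 and 283 CPM in WT and at 106, 89.8 and 131 CPM in KO (-1.35 ± 0.13). Ccr6 had 210 counts in WT and 4 in KO, a depth-scaled ratio of 41.2 (95% counting interval 15.9 to 153), and its fitted log2 difference moved from -5.27 to -6.44 without KO 2.

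Of 29 fungal pattern receptors and adapters, 17 were higher and 3 lower (median 0.44; 12 and 5 with library size alone). Next to Cd209a, the largest were the Fc receptor gene Fcgr4 (1.99), the mannose receptor relative Mrc2 (1.46, under 1 CPM in all 6 libraries), Clec2d (1.25), Fcgr1 (1.22) and Clec4d (1.04), a Dectin-1 relative that recognises fungal mannans; the lower ones were Clec4b1 (-0.22), Itgb2 (-0.5) and Tlr4 (-0.48). Of 24 Toll-like receptor genes and adapters, 12 were higher and 4 lower, against 9 and 8 with library size alone. Tlr1 was at 7.93, 6.28 and 5.99 CPM in WT and at 32.3, 39.1 and 32.3 CPM in KO (2.36 ± 0.14). Tlr3 (2.32), the sensor of double-stranded RNA, and the RP105 pair Cd180 (1.18) and Ly86 (2.52) were higher.

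Antigen presentation genes were higher in KO. Of 17 class II genes, 10 were higher and 2 lower (median 0.96), and their summed CPM was 11800 to 12900 in WT and 22400 to 28100 in KO. H2-Aa, the alpha chain of I-A, was at 1290, 1280 and 1240 CPM in WT and at 4220, 3610 and 3770 CPM in KO, 3.04-fold higher (1.61 ± 0.11, edgeR adjusted p = 3.62e-07). H2-Ab1 (1.59) and H2-Eb1 (1.59) differed by about as much, the invariant chain gene Cd74 by 0.97, and the class II transactivator Ciita by 0.62. The 2 lower members were Rfxap (-0.34) and Rfxank (-0.39), subunits of the RFX complex. Of 22 class I genes, 16 were higher and 1 lower (the chaperone gene Calr, -0.32), or 14 and 4 with library size alone, with a median of 0.71 and Tap1 (1.01), the peptide transporter, the largest. Costimulation and maturation genes did not go one way: 11 of 28 were higher and 10 lower, and 10 and 12 with library size alone. Cd86, the ligand of CD28, was at 150, 123 and 155 CPM in WT and at 491, 448 and 546 CPM in KO (1.8 ± 0.11). Cd40 was at 42.6, 35.4 and 51.6 against 271, 270 and 115 CPM, KO 5 being the lowest KO library and still above WT. Pdcd1lg2, which encodes PD-L2, was at 70.5, 71.2 and 61.1 CPM in WT and at 23.9, 13.2 and 10.3 CPM in KO (-2.09 ± 0.3). Cd200 (-1.37) and Cd70 (-1.27) were lower too, and Cd83 (1.45) and Havcr2 (1.39) higher.

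Of 21 complement genes, the C1q chains included, 11 were higher and 3 lower (5 lower without KO 5), and 10 and 7 with library size alone. C3ar1 (2.27) and the C5a receptors C5ar1 (1.62) and C5ar2 (1.72) were higher, while C1s1 (-2.07), a protease of the C1 complex, and Cfb (-2.43), factor B of the alternative pathway, were lower. Of 26 scavenger and phagocytic receptors, 14 were higher and 3 lower (9 and 6 with library size alone). Mertk, the receptor that binds Gas6-coated dying cells, was at 105, 95.1 and 104 CPM in WT and at 272, 244 and 330 CPM in KO (1.48 ± 0.1). Stab1 (1.66) was higher, and Marco (-0.97), Scarb1 (-1.15) and Lrp1 (-0.83) were lower. Of 41 lysosome and phagosome genes, 15 were higher and 5 lower (8 and 12 with library size alone): Ctsl (1.35) and the autophagy receptor Sqstm1 (1.15) were higher, and the collagenolytic protease Ctsk lower (-2.23).

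Lipid synthesis genes were lower. Of 26 sterol and fatty acid synthesis genes, 21 were lower and 0 higher, with a median of -0.52 and 15 to 22 lower when any 1 library was left out. Fads2, the delta-6 desaturase, was at 33, 37.2 and 40.8 CPM in WT and at 6.95, 6.05 and 4.59 CPM in KO, 6.29-fold lower (-2.65 ± 0.16). The sterol enzymes Nsdhl (-1.18) and Lss (-1.17) and the acetyl-CoA carboxylase Acaca (-1.05) were lower by over 2-fold. Among 23 genes of lipid export and LXR targets, 6 were higher and 7 lower (5 and 11 with library size alone). Apoe was the largest increase, whereas Scd2 was at 1110, 1150 and 1110 CPM in WT and at 239, 280 and 164 CPM in KO (-2.31 ± 0.17). Lpl, lipoprotein lipase, was at 4000, 4020 and 3940 CPM in WT and at 1190, 1510 and 1770 CPM in KO (-1.42 ± 0.16). Of 23 prostaglandin and leukotriene genes, 9 were higher and 7 lower (8 and 9 with library size alone), the lower count being 3 to 4 without WT 1, WT 4, KO 2 or KO 4. Ptgis (3.55), prostacyclin synthase, Ptger3 (2.49) and Ptger2 (2.03) were higher.

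Cell cycle genes were lower: 36 of 43 tested, 20 by at least 2-fold, with a median of -0.95 and 34 to 36 lower when any 1 library was left out. Bub1b, a spindle checkpoint kinase, was at 42.5, 51.2 and 46.1 CPM in WT and at 14.5, 11.9 and 14 CPM in KO (-1.79 ± 0.11, edgeR adjusted p = 2.48e-07). Ccnb1, cyclin B1, was at 40.5, 42.6 and 40.2 CPM in WT and at 12.8, 12.6 and 14.7 CPM in KO (-1.62 ± 0.11), and the mitotic kinesins Kif20a (-1.76) and Kif11 (-1.5) were lower too. The 3 higher members were the p21 inhibitor gene Cdkn1a (1.0), Cdt1 (0.29) and Ccnd3 (0.23). In bulk RNA, fewer cycling cells and less cycle RNA per cell cannot be told apart, and the same holds for every cell type named below.

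Metabolic and housekeeping lists moved little and depended on the scaling. Of 47 ribosomal protein genes, 37 were higher and 0 lower (median 0.33), and 13 and 7 with library size alone; Rpl30 (1.01) was the largest. For 46 respiratory chain genes the counts were 8 higher and 15 lower, and 0 and 26 with library size alone. Only 2 were higher without WT 2, WT 4 or KO 4, and 5 without KO 5. Proteasome subunits gave 10 higher and 2 lower of 31, and 0 and 14 with library size alone; without WT 2, WT 4 or KO 4, 5 were higher, and without KO 5, 6. Glycolysis and hypoxia genes gave 3 higher and 13 lower of 34 (median -0.15; 0 and 21 with library size alone; 1 to 5 higher and 9 to 15 lower when any 1 library was left out, the higher count being 1 without WT 1 or WT 2 and 5 without KO 4), with the oxygen sensor Egln3 at 435, 380 and 451 CPM in WT and 203, 188 and 261 CPM in KO (-0.96 ± 0.17). Aldoc (-0.94) and Pdk1 (-0.83) were lower as well. Of 24 inflammasome genes, 8 were higher and 4 lower, but 6 and 8 with library size alone. Mefv, the pyrin gene, was at 7.65, 7.32 and 7.74 CPM in WT and at 42.3, 36.2 and 51.1 CPM in KO (2.51 ± 0.15), and Casp4 was higher by 1.34. Nitric oxide and arginine genes gave 7 higher and 2 lower of 14, and 3 and 3 with library size alone, with Sat1, which acetylates polyamines, higher (1.44) and Ass1, argininosuccinate synthase, lower (-1.05). NADPH oxidase and antioxidant genes gave 12 higher and 4 lower of 30 (6 and 8 with library size alone; 7 higher without WT 2, and 2 lower without WT 4 or KO 2), Gpx3 (1.92) being the largest. Stress and unfolded protein genes gave 9 higher and 13 lower of 30, with Ppp1r15a (1.2) and Atf5 (1.09) higher and Psat1 lower (-0.94).

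**Figure D3:**
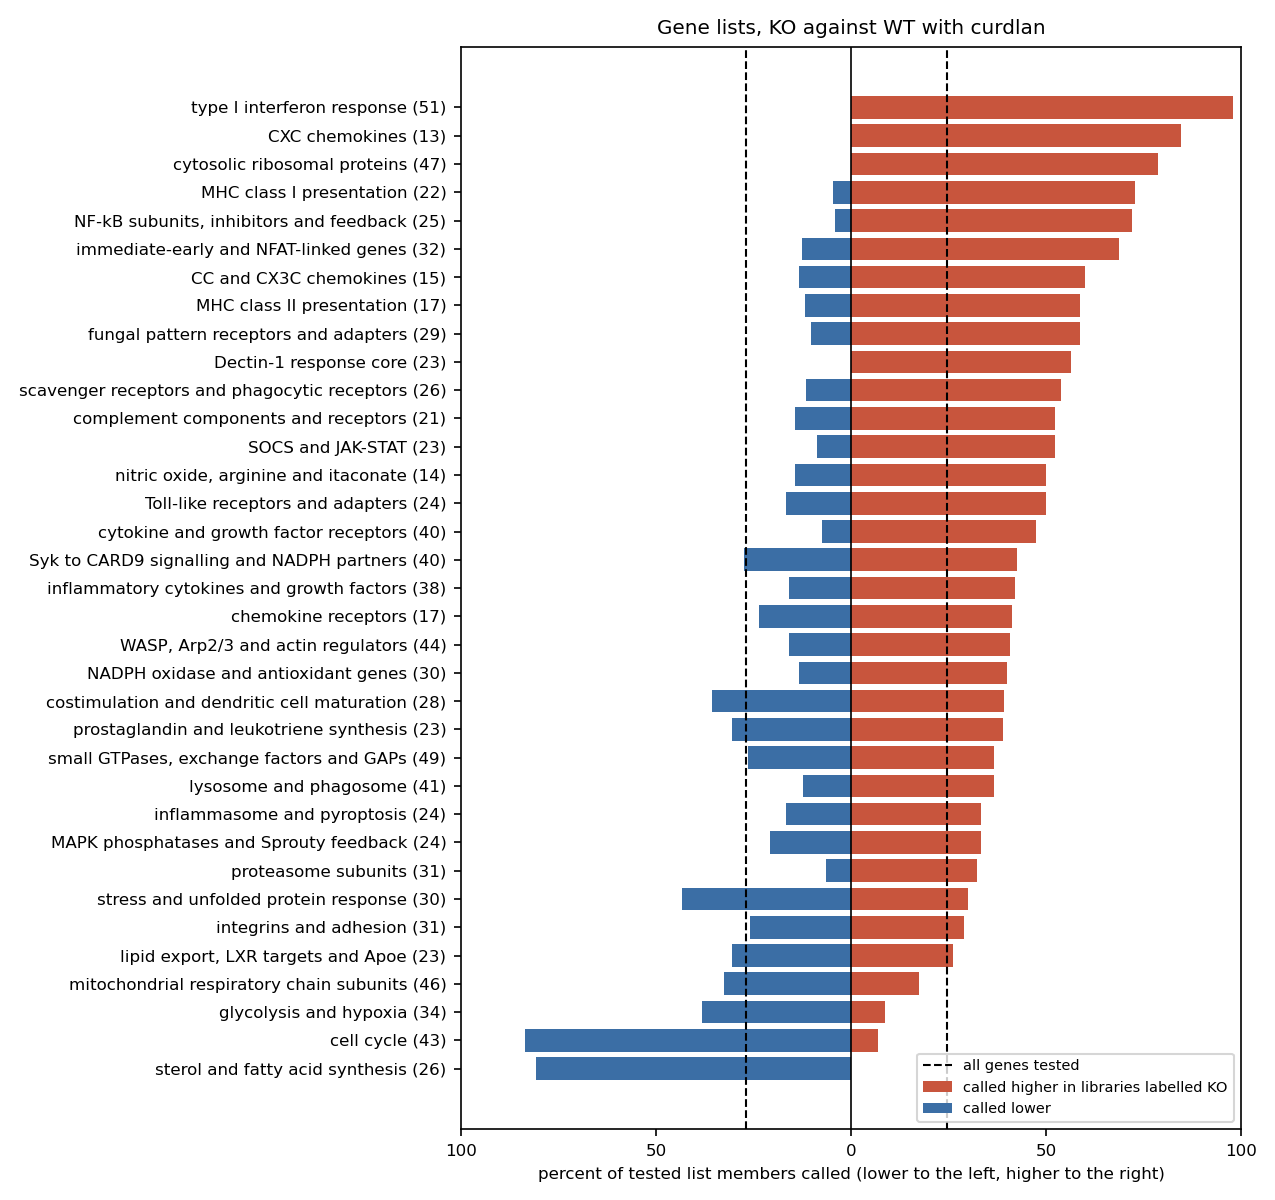
Percent of tested members called higher (right) and lower (left) in KO with curdlan for each of the 35 gene lists, with the number tested in brackets and dashed lines at the 24.7% and 26.8% of all genes. The interferon list (50 of 51 higher) is at the top, and the cell cycle (36 of 43 lower) and sterol and fatty acid lists (21 of 26 lower) are at the bottom.

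Itgax and Zbtb46, markers of the labelled cell type, were present in both groups, and Flt3 was at a mean of 1.97 CPM in WT and 2.05 CPM in KO. Mean CPM of Itgax, which encodes CD11c, was 1340 in WT and 944 in KO (-0.5), and that of the dendritic cell transcription factor Zbtb46 was 71.3 and 47.1 (-0.6). Of 24 conventional dendritic cell markers, 8 were higher and 8 lower (33.3% each, median -0.06), beside 24.7% and 26.8% of all genes. The higher ones were Cd209a (5.01), Cd86 (1.8), H2-Ab1 (1.59), Cd74 (0.97), Mgl2 (0.96), Dpp4 (0.71), Naaa (0.61) and Sirpa (0.43). The lower ones included Ccr7 (-1.35), Irf4 (-0.68), Wdfy4 (-0.62) and Id2 (-0.25). Clec9a, the receptor of cross-presenting dendritic cells for dead cells, was at 9.08, 8.34 and 6.59 CPM in WT and at 0.263, 0.166 and 0.645 CPM in KO (-4.49 ± 0.34, -5.17 without KO 5), yet Xcr1, another marker of that subset, did not differ past the threshold (0.21). Ly75, or DEC-205, was at 90.6, 93.5 and 100 against 28, 26.9 and 20.2 CPM (-1.92 ± 0.14).

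Macrophage markers moved with the C1q, Apoe and Mertk result, and all of these are members of that marker list. Of 24 macrophage markers, 18 were higher in KO and 1 lower (Marco), with a median of 1.06 and a summed CPM of 15700 to 17200 in WT and 25000 to 27900 in KO. Adgre1, which encodes F4/80, had a mean of 74.6 CPM in WT and 255 CPM in KO (1.77), while Csf1r (0.16) and Cd68 (0.14) did not pass. The part of macrophage content in the results above was not tested. Monocyte markers gave 4 higher and 4 lower of 15 (26.7% each), near the 24.7% and 26.8% of all genes. Ms4a4c was higher (3.03), and Ace (-2.03), Hp (-1.31) and Fn1 were lower. Fn1, fibronectin, was at 1950, 2430 and 2910 CPM in WT and at 357, 486 and 1510 CPM in KO, so KO 5 lay nearest to WT. Its call (-1.63 ± 0.59, edgeR adjusted p = 0.0339) was lost without KO 2 (-1.29, 0.0989), KO 4 (-1.39, 0.111), WT 2 (-1.63, 0.0665) or WT 4 (-1.48, 0.0863; adjusted p 0.000365 to 0.111 over all alternatives), and its log2 difference was -2.53 without KO 5.

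Neutrophil markers were higher in 17 of 24 and lower in 0 (median 0.8), with a summed CPM of 5210 to 6060 in WT and 7770 to 12500 in KO; 12 to 19 were higher when any 1 library was left out. Hdc, histidine decarboxylase, was at 35.2, 33.3 and 53.2 CPM in WT and at 283, 228 and 319 CPM in KO (2.77 ± 0.17). It is also a member of the mast cell and basophil list. Stfa2 (2.16) and Stfa3 (2.12) were higher, and S100a8 (1.0), S100a9 (0.85), Ngp (0.84) and Ltf (0.53) were higher by less. Lcn2, Elane, Prtn3, Cebpe, Fcnb, Chil1 and Wfdc21 did not pass. Mast cell and basophil markers were higher in 10 of 12 and lower in 0 (median 2.33), with sums of 82.8 to 109 CPM in WT and 480 to 646 CPM in KO. Mcpt8, a basophil protease gene, was at 9.66, 7.8 and 8.93 CPM in WT and at 54.4, 66.9 and 83.5 CPM in KO (2.96 ± 0.21), while Mcpt4 was at 0 counts in all 6 libraries. Erythroid and megakaryocyte markers gave 4 higher and 1 lower of 10, led by the platelet chemokine genes Ppbp (2.32, or 1.45 without KO 5) and Pf4 (1.96), which also count among the CXC chemokines. Stromal markers gave 9 higher and 2 lower of 15, with Kdr higher (3.52) and Pdgfrb lower (-1.91). Eosinophil markers gave 1 higher and 4 lower of 9, osteoclast markers 2 and 3 of 10, T cell markers 3 and 2 of 9, NK cell markers 2 and 3 of 7 and sex-linked genes 0 and 0 of 3. Gzmb, granzyme B, was at 0.415 to 0.67 CPM in WT and 7.55 to 11.2 CPM in KO (4.02), whereas the NK receptor genes Klrk1 (-2.61) and Klrd1 (-5.41, or -8.9 without KO 2, at 177 counts in WT and 3 in KO) were lower.

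Most B cell genes were near absent from the KO libraries. Of 13 B cell markers, 12 were lower and 0 higher, with a median of -5.59. The summed CPM was 888 to 1270 in WT and 27.2 to 36.9 in KO. Cd22 did not pass (0.23), and with Ighm it made up most of the KO sum, at means of 15.5 and 14.4 CPM. Ebf1 was lower by less than the other called members (-1.16). Mzb1, which assists antibody assembly, had 2895 counts in WT and 0 in KO, at least 757-fold lower against a floor of 3 counts over the 3 KO libraries. Jchain had 11180 counts in WT and 7 in KO (depth-scaled ratio 1250, 95% counting interval 608 to 3120), and Ms4a1, which encodes CD20, had 1375 and 3 (360, 123 to 1750). With so few KO counts the fitted log2 differences moved with 1 library, that of Jchain from -10.24 to -10.89 without KO 5 and that of Ms4a1 from -8.36 to -9.3 without KO 4. Every immunoglobulin gene tested was lower: 58 of 58 variable, 7 of 7 constant and 8 of 8 joining genes, with a median log2 difference of -5.83 when the 56 genes at 0 in KO are set at their bound. Summed variable gene CPM was 146, 140 and 108 in WT 1, 2 and 4 and 0.307, 0.304 and 0.0537 in KO 2, 4 and 5. Of 13 plasmacytoid dendritic cell markers, 4 were higher and 6 lower. The higher ones were Klk1 (2.1), Cox6a2 (1.8), Bst2 (1.47) and Cd300c (0.62). Ly6d, shared with early B cells, had 1053 counts in WT and 4 in KO (207, 80.5 to 760). Its fitted log2 difference was -7.59, or -8.91 without KO 4. Pacsin1 was lower by 12.3-fold (-3.62), and Spib, Ccr9 (-1.01), Ptprcap (-1.0) and Tcf4 (-0.18) were lower too. Siglech, the defining surface marker, did not pass (0.52), at a mean of 0.312 CPM in WT and 0.448 CPM in KO. The part of B-lineage cells in the lower values of Spib, Ighm and Igkc was not tested.

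A group of neighbouring genes on chromosome 11, singled out after their values were seen, was close to 0 in every KO library. St6galnac2 (chr11:116675303-116694868, minus strand, GENCODE M21), a sialyltransferase gene, was at 31.2, 32 and 32 CPM in WT and at 0.0438, 0 and 0.0537 CPM in KO. That is 4812 counts against 4, a depth-scaled ratio of 944 (95% counting interval 369 to 3470). The next genes were BC018473 (chr11:116752167-116759373, plus strand), with 101304 counts in WT and 152 in KO (523, 446 to 617), and St6galnac1 (chr11:116765025-116775507, minus strand), with 1657 and 5 (260, 111 to 802). Gm11735 (chr11:116739062-116749833) had 648 counts in WT and 0 in KO, at least 170-fold lower against the floor of 3. On the side of lower coordinates Cygb (chr11:116645595-116654313), a globin gene, was lower (-3.84), Rhbdf2 was higher (1.25), and Ube2o, farther out, did not pass (0.04). On the other side Mxra7 was lower (-0.99) and Jmjd6 did not pass (0.16). Without curdlan the same genes behaved alike, with St6galnac2 at 8610 counts in WT and 11 in KO and BC018473 at 61494 and 130. Since the kit does not mark strand, reads of a gene and of an antisense neighbour cannot be told apart here. None of the 3 Vav genes lies on this chromosome. Around them, 37 of 62 tested genes within 2 Mb of Vav1 were called (59.7%), 36 of 89 near Vav2 (40.4%) and 14 of 38 near Vav3 (36.8%), beside 51.4% of all genes. Within 1 Mb the shares were 62.9% of 35 genes for Vav1, 31.7% of 41 for Vav2 and 62.5% of 16 for Vav3, so that of Vav3 depends on the window.

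**Figure D4:**
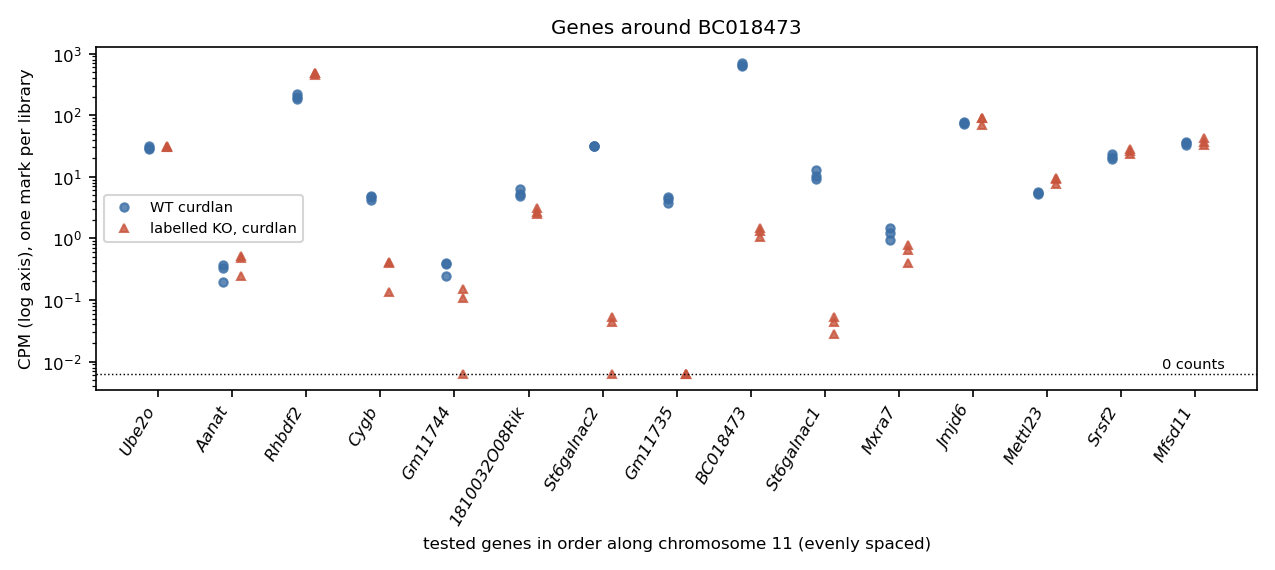
CPM (log axis) with curdlan for tested genes in their order along chromosome 11, evenly spaced, with circles for WT and triangles for KO libraries and a dotted line for 0 counts. St6galnac2, Gm11735 and St6galnac1 lie at or near 0 in every KO library, BC018473 lies at 1.05 to 1.45 CPM in KO beside 629 to 715 CPM in WT, and Ube2o and Jmjd6 are about level between groups.

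Most of the large genotype differences were also present without curdlan, measured in the other 6 libraries. Without curdlan 8427 genes were called (44.4%), and 5932 genes were called in both states with the same direction, 140 with opposite directions. Of the 2553 genes at least 2-fold different with curdlan, 2114 (82.8%) were called in the same direction without. Pearson's r of the log2 differences of all genes between states was 0.917, a description across genes that are not independent replicates. Apoe differed by 6.89 without curdlan and 6.73 with it, Igkc by -10.47 and -9.37, Gas6 by 5.15 and 5.11, Scd1 by -3.95 and -3.9, and Rasgrp3 by -3.65 and -3.5. The interferon list was higher in 51 of 51 members without curdlan, and cell cycle genes were lower in 37 of 43.

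The test of the difference between states (the contrast with curdlan minus that without) called 989 genes (5.21%), 305 where it was positive (1.61%) and 684 where it was negative (3.6%). This count was unsteady: leaving out 1 library gave 366 (without WT curdlan 2) to 2837 (without KO curdlan 2), and 9 of the 12 libraries each moved it by over 1.5 times. Deviations of same-numbered libraries with and without curdlan correlated across genes at r = 0.129 to 0.557. Those of differently numbered libraries ran from -0.47 to 0.246, so the ranges overlap. A fit with the library number within genotype as a replicate block called 2671 genes (14.1%), 1059 positive and 1612 negative, among them 964 of the 989 with the same direction. In that fit KO 4 with curdlan and KO 1 without have no partner, so the KO side rests on KO 2 and KO 5. Without the block the call included 10 of the 23 core genes, and 9 of 25 NF-kB genes and 12 of 34 glycolysis genes, and with it 15, 18 and 20 of them. For Tnf the contrast was 2.57 without curdlan and 0.42 with it, a difference of -2.16 (edgeR adjusted p = 0.00195). Il12b went from 3.95 to 0.58 (-3.37, adjusted p = 0.00105 in edgeR), Ptgs2 from 3.3 to 0.66 (-2.64, adjusted p = 0.000608 in edgeR) and Ccl7 from 5.4 to 3.07 (-2.33). In these 4 genes the ratio of KO to WT was thus larger in the unstimulated cells than in the stimulated cells. The call held under all 21 alternatives that fit both states. These are ratios and do not describe the gap in CPM. Il10 went the other way, from -2.97 to -0.19 (2.78, edgeR adjusted p = 0.0204, lost under 3 of 21 alternatives). Glycolysis and hypoxia genes were called higher in 14 and lower in 5 of 34 without curdlan, against 3 and 13 with it. Of all genes, 24.7% were called higher and 26.8% lower with curdlan. Without curdlan 44.4% of all genes were called, a share given here without its split by direction. Ribosomal protein genes gave 3 higher and 4 lower of 47 without curdlan, against 37 and 0 with it, but the difference itself was called in 2, or 16 with the block.

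Some genes were called with curdlan and showed the opposite sign, or close to no contrast, without it. Cd72, an inhibitory receptor gene of B cells and myeloid cells, was at 11.7, 9.27 and 10.7 CPM in WT and at 43.7, 39.6 and 35.6 CPM in KO with curdlan (1.91 ± 0.13), and its contrast without curdlan was -0.27 (difference 2.18, edgeR adjusted p = 0.000608). Dpep3, a dipeptidase gene, was at 7.55, 6.76 and 8.22 against 20.9, 34.9 and 50.1 CPM with curdlan (2.23 ± 0.34), beside -0.23 without. Fosl1, an AP-1 subunit gene, was at 5.15, 5.29 and 6.76 CPM in WT and at 3.09, 2.07 and 2.95 CPM in KO (-1.08 ± 0.2), beside 0.33 without curdlan. Of the 989 genes, 389 were called with curdlan alone, 234 without curdlan alone and 139 in both with opposite signs. The rest were called in both states with the same sign, 127 with a smaller and 100 with a larger contrast with curdlan.

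**Figure D5:**
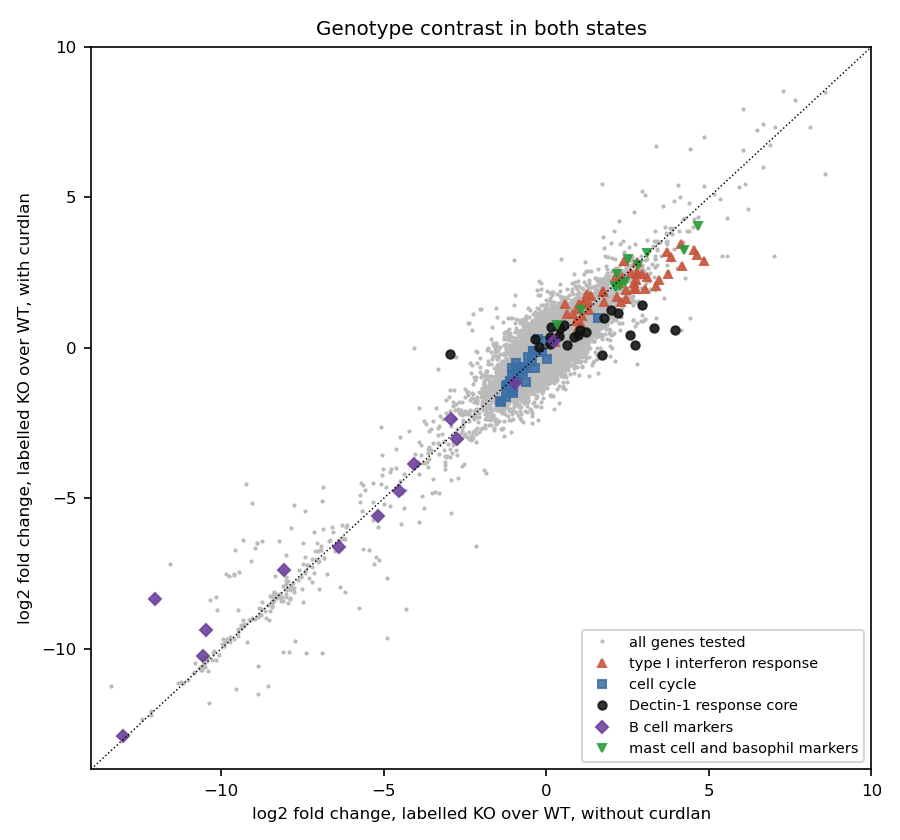
Log2 difference between KO and WT without curdlan (x axis) and with curdlan (y axis), 1 point per tested gene, with 5 lists marked by colour and shape and a dotted line of equal values. Most points lie along the line (Pearson's r 0.917), and the Dectin-1 core genes Tnf, Il12b and Ptgs2 lie below it, with 2.57, 3.95 and 3.3 without curdlan and 0.42, 0.58 and 0.66 with it.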

How the data were processed

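Per the labels' protocols, RNA of mouse BMDCs (12 libraries) was isolated with TRIzol and an RNeasy column, and libraries were made with a TruSeq kit that keeps no strand and read on an Illumina HiSeq. The values used are raw counts per gene and library deposited by the authors. The submitters' processing notes name TopHat2 (the version reads 2.4.2a) and featureCounts 1.4.6, beside FastQC 0.11.1, SAMtools 1.2 and DESeq2 1.8.2. Genome build, gene models, strandedness and the rule for multi-mapping reads were not given in the sources used here. A comparison table of the same contrast, also deposited by the authors, holds log2 fold changes with standard errors. Its p-values and adjusted p-values, per the file headers, come from a model that these sources leave undescribed. Another 24 columns of values per sample were not used.

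From the counts, genes were kept with edgeR's filterByExpr by group, scaled with TMM and tested by the two-sided quasi-likelihood F-test of edgeR 4.0.16 in R 4.3.3. A fit of the 12 libraries as 4 groups gave all 3 contrasts. Benjamini-Hochberg adjusted p-values under 0.05 over all tested genes count as called. CPM are not per length, so levels are not compared between genes. A ratio for a gene with few counts has a 95% counting interval, which, like the floor of 3 counts, covers counting error only. On simulated counts for this contrast (18715 genes tested), 50 of 50 genes changed 4-fold, 50 of 50 changed 0.25-fold, 44 of 50 changed 2-fold and 32 of 50 changed 1.5-fold were called, with 6 false calls. The changed genes were drawn from those with a mean of at least 50 counts. WT and KO were simulated with the same spread, whereas the real KO replicates differed more than the WT replicates. Calling where 51.4% of genes differ, the share called with curdlan, was not tested.

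Genes named are the Vav genes, the Dectin-1 core list, up to 15 increases and 15 decreases without overlap, of at least 2 mean log2 CPM and with a symbol that is no clone name, up to 4 called members of each of 35 gene lists and 14 marker lists, and up to 8 genes each way by the difference between states; other members are named where few went against their list, and the chromosome 11 genes and further list members were chosen after their values were seen. Values of a few genes are not reported here. Members and lists were chosen with earlier results of these data known. Symbols come from the authors' files (33170 of 37991 genes). Coordinates come from GENCODE M21 (GRCm38), matched by identifier for 32919 genes, since the authors' build is not known. Promoters come from RefSeq (GRCm38.p6) and matched 11053 of 17652 tested genes with a symbol. The alternatives were DESeq2 1.42.0, limma-voom (limma 3.58.1), other scalings and filters, the 6 curdlan libraries alone, a replicate block and leaving out each library. Deviations of same-numbered libraries of a genotype with and without curdlan correlated at r = 0.129 to 0.557 across genes over 5 pairs. Pairs of different number ran from -0.47 to 0.246. The difference between states was also fitted with the library number as a block within genotype, an alternative added after seeing the data. Sample titles number replicates differently from library names, and the WT curdlan columns of the authors' table carry numbers 4, 1 and 2 where identical count columns carry 1, 2 and 4.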

Additional observations from a re-analysis of the deposited data

Results flagged for a closer look

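For 37 of the genes named, the KO contrast differed between cells with and without curdlan by the test of the difference itself (edgeR, Benjamini-Hochberg adjusted p from 0.000608 to 0.0481). Values below are the contrast with curdlan minus the contrast without, on the log2 scale. Of these calls, 23 held under all 21 alternatives that include both states and 14 were lost under at least 1 of them, while no direction turned.

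The contrast was smaller or more negative with curdlan for 24 of these genes. Among cytokines and chemokines these were Il12b (-3.37), Lif (-3.32), Cxcl1 (-2.64), Ccl7 (-2.33), Csf3 (-2.23), Tnf (-2.16), Gdf15 (-2.03) and Il23a (-1.54). Lif, a cytokine of the interleukin-6 family, had a contrast of 2.8 without curdlan and was at 182, 164 and 193 CPM in WT and at 84, 70.3 and 221 CPM in KO with curdlan, where KO 5 alone lay above WT. Its contrast with curdlan of -0.52 did not pass, but passed as lower without KO 5 (-1.22, edgeR adjusted p = 0.0178). The contrast of Csf3 with curdlan also passed as lower only in alternatives, such as without KO 5 (-0.84, edgeR adjusted p = 0.00978). Gdf15, a stress-induced cytokine gene, had a contrast of 2.93 without curdlan and was at 137, 117 and 143 against 273, 230 and 237 CPM with it. Ptgs2 (-2.64), Fosl1 (-1.4), Mefv (-1.24), Egln3 (-1.2), Icam1 (-1.13), Nfkbiz (-1.12), Spib (-1.06), Socs3 (-0.95), Ly75 (-0.92), Tlr1 (-0.78), Tnfaip3 (-0.68), Src (-0.67), Hmox1 (-0.64), Syk (-0.57), Malt1 (-0.54) and Maff (-0.51) went the same way. The calls of Cxcl1, Csf3, Il23a, Fosl1, Icam1, Ly75, Tlr1, Hmox1, Malt1 and Maff were among those lost.

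The contrast was larger or less negative with curdlan for Il10 (2.78), Dpep3 (2.46), Cd72 (2.18), Tnc (1.71), Amigo3 (1.55), Pdzk1ip1 (1.48), Ppm1j (1.41), Flt1 (1.37), Rcan1 (1.18), Dcstamp (0.88), Prdx1 (0.76), Sat1 (0.69) and Clec7a (0.63). Flt1, a receptor of vascular endothelial growth factor, had contrasts of -3.09 without curdlan and -1.73 with it, and Ppm1j of -3.4 and -1.99, so both were lower in KO in each state. The calls of Il10, Pdzk1ip1, Rcan1 and Clec7a were among those lost. Groups of 3 libraries are too small for the test of single outlying samples.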

How the results depend on the processing

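The count of genes called between KO and WT with curdlan stayed between 8009 and 10381 over 21 alternatives, that of calls of at least 2-fold between 1774 and 2966, and that without curdlan between 7100 and 9655. With libraries scaled by size alone, 2460 genes were higher and 7921 lower, in place of 4682 and 5080. The count for the difference between states, 989, was 2180 with DESeq2 and 2002 with the replicate number as a block over both genotypes, and 2671 with the replicate block within genotype, which was chosen after seeing the data; of the genes named, it gave 54 a call and ended none of 37. Leaving out 1 library, it was 366 without WT curdlan 2, 382 without WT unstimulated 1, 402 without KO unstimulated 1, 502 without WT unstimulated 2, 579 without WT curdlan 4, 591 without WT unstimulated 4, 625 without KO curdlan 4, 630 without KO unstimulated 5 and 2837 without KO curdlan 2; the cause was not tested. Of 233 named genes, library size alone ended the call of 14 and gave 2 new calls, limma-voom ended 5, DESeq2 ended 2, and leaving out KO curdlan 5 ended 6 and gave 4. No called gene turned its direction; Il1b, Il10, Il2, Csf2, Cxcl1, Syk and Card9, which did not pass, changed sign under some alternatives. Among the genes lost under the most alternatives were Mmp9, Nkg7, Il12b, Cxcl13 and Itga3.

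In the fit with the replicate block, 9961 genes were called with curdlan, 4733 higher and 5228 lower, and the block changed the call of 10 named genes, 7 gained and 3 lost; among lists it gave 7 lower inflammasome genes in place of 4, 11 lower cytokine genes in place of 6 and 25 higher lysosome genes in place of 15. Numbers 2 and 4 are shared by WT and KO curdlan libraries. The deviations of same-numbered libraries from their group means correlated at 0.0822 and -0.151 across genes, and those of differently numbered libraries at -0.204 to 0.178. With so few pairs this cannot show whether same-numbered WT and KO libraries share more than a number. Depth (41719713 counts or more in each of these libraries) limited members with few counts most, such as Cxcl13, Ccl8, Ccr6 and Klrd1.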
